A study of Mus musculus with 8 samples.

Results

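The genes described here encode enzymes of cholesterol synthesis and of fatty acid synthesis, together with the SREBP (sterol regulatory element-binding protein) factors and their regulators. They are 32 of the 55276 gene symbols in the deposited count table, taken by name from a list, and all 32 were present and tested. The series compared 2 fractions of live esophageal epithelial cells of C57BL6 mice, aged 14 to 15 weeks. The cells carried integrin beta-1, excluded the dead-cell stain DAPI and were parted by flow cytometry into Cyto-ID Low and Cyto-ID High, where Cyto-ID is a dye for autophagic vesicles. Each of 2 female and 2 male animals gave 1 library of each fraction, so that there were 4 libraries per fraction. The labels name no mutant genotype and no drug for any of them, and both fractions of an animal were sorted from its cell suspension. The names Female1, Female2, Male1 and Male2 in the sample titles are read here as 4 animals.

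Cholesterol is made from acetyl-CoA by way of mevalonate, isoprenoid diphosphates, squalene and lanosterol. Fatty acids are made from acetyl-CoA and malonyl-CoA by a single large synthase, with NADPH as the reductant. The SREBP factors are held in the endoplasmic reticulum by SCAP and INSIG proteins while sterol is plentiful, and reach the nucleus to switch on both sets of genes when it is scarce. In stratified squamous epithelia both kinds of lipid go into membranes and, in the upper layers, into barrier lipids.

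Library totals ran from 26285150 to 29301054 counts. The labels call the cells squamous and basal, and the 8 basal keratinocyte markers examined were detected in all libraries. Their summed level was 20628 to 24516 CPM (counts scaled to library size with edgeR's TMM factors) in Low and 2721 to 4390.2 in High. That of 8 suprabasal differentiation markers was 8715 to 25209.7 CPM in Low and 137264 to 235964 in High. Itgb1, which encodes the integrin of the gate, stood at 378, 323, 390.3 and 389 CPM in Cyto-ID Low and at 92.2, 56.6, 72.3 and 51.8 CPM in Cyto-ID High in the order Female1, Female2, Male1 and Male2, and fell, with a log2 fold change of −2.44 ± 0.21 (SE, adjusted p 2.16e-05 by edgeR). Libraries of 2 animals stood apart. Both Female2 libraries held transcripts of gastric epithelium (18.6 and 115 CPM summed over 8 markers found in the table, against at most 1.03 in any other), and High Male2 held few transcripts of fibroblasts (38.4 CPM over 7 markers, against 149 to 497 in the other 7). Results are given below with all 8 libraries, and with those of either animal left out where that changed a call.

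Nearly the whole pathway was more abundant in Cyto-ID High. Of the 32 genes 31 rose and 0 fell (edgeR's quasi-likelihood test with Benjamini-Hochberg adjusted p under 0.05), and only Insig2 did not pass. Among all 17344 genes tested, 23.4% were called higher and 25.3% lower. A rise of at least 2-fold, or 1 on the log2 scale, was fitted for 28 of the 32 and for 13.6% of all genes. The median log2 fold change of High over Low was 2.51 for the 32 genes and −0.09 for all genes tested, of which 3.61% lay above the median of the 32. For 30 of the 32 every High library exceeded every Low library, as it did for 23.6% of all genes. Summed over the 32 genes, the level was 1712, 1785, 1421 and 1988 CPM in the Low libraries of Female1, Female2, Male1 and Male2, and 6836, 10390.4, 7847 and 9543 CPM in their High libraries. The 4 High sums thus all lay above the 4 Low sums, the lowest at 6836 and the highest Low sum at 1988.

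These sums do not rest on the scaling alone. As an unscaled share of all counts in a library, the 32 genes took 0.167% to 0.233% in Low and 0.645% to 0.822% in High. With total counts as the only scaling, the median of all genes moved from −0.09 to −0.64 on the log2 scale, a shift of −0.55, and that of the 32 genes to 1.93. Under this scaling 28 of the 32 were called higher, where 12.6% of all genes were, and Insig2 was called lower, where 49.1% were. The 3 others, Srebf1, Scap and Scd1, no longer passed. In bulk RNA, a larger share of cells that express a gene and more of its RNA per cell cannot be told apart. The rise went along with the basal and suprabasal markers given above, 8 of 8 of which were called lower and 8 of 8 higher, and the part of these in the result was not tested.

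**Figure D1:**
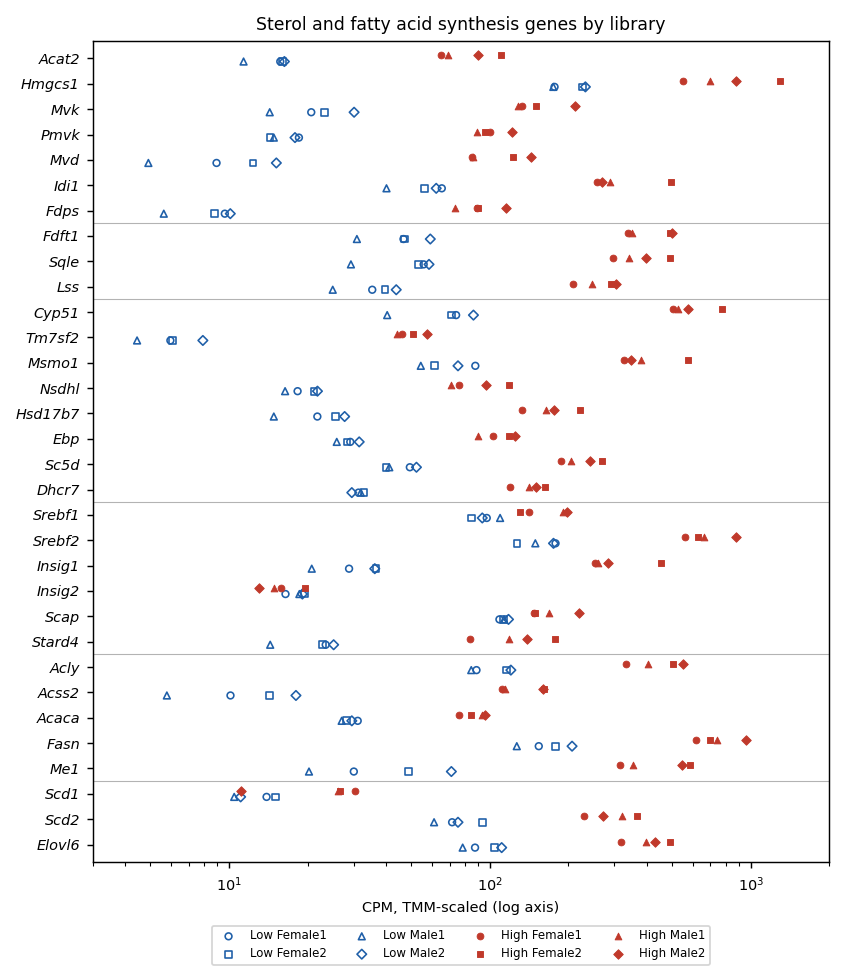
TMM-scaled CPM (log axis) of each of the 32 genes in the 4 Cyto-ID Low libraries (open blue) and the 4 Cyto-ID High libraries (filled red), 1 symbol per animal, with lines between the role groups. The red symbols lie to the right of all blue ones in 30 of 32 genes, the exceptions being Insig2 and Scd1.

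Promoter sequences of 3 genes that rose and of Insig2, the one that did not, are shown ahead of the single genes, since shared elements close to the start site are the known means by which these genes are switched together. The sequences were taken from a set of RefSeq promoters (GRCm38.p6) that covered 26 of the 32 genes. Fdps, Fdft1, Sqle, Stard4, Scd1 and Scd2 had no sequence in the set used and were not searched. Each is written 5′ to 3′ on the strand of the gene, ends at or before the start site and stops short of exons in GENCODE M21. Capitals mark TCACNCCAC, a form of the sterol regulatory element, CCAAT, the site of NF-Y, and GGGCGG, the site of Sp1, each on either strand. Hmgcs1 is shown as the gene that held the sterol element (chr13:119690101-119690350 on the plus strand), Insig1 as the regulator with the largest change (chr5:28071162-28071362 on the plus strand), Mvd as a mevalonate enzyme with a large change (chr8:122443423-122443672 on the minus strand), and Insig2 at the outermost of its 3 start sites (chr1:121332590-121332839 on the minus strand).
Hmgcs1: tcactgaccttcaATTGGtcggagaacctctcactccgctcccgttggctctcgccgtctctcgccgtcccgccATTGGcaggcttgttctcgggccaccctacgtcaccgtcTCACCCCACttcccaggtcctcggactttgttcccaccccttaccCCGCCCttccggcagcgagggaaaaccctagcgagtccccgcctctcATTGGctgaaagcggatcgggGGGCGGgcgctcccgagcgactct
Insig1: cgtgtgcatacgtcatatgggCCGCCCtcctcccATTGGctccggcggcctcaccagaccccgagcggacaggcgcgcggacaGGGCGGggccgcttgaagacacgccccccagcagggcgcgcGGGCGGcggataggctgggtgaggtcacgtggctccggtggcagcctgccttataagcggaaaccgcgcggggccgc
Mvd: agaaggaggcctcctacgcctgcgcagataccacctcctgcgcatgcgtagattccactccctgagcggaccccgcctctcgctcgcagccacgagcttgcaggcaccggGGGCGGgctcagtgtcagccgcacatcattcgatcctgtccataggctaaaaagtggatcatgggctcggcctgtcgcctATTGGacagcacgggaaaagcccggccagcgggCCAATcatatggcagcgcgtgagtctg
Insig2: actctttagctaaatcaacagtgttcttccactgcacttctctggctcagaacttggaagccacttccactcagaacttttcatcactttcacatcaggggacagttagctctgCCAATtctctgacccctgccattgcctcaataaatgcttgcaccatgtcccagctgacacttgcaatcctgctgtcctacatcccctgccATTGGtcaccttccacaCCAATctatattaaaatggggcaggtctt

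In the 250 bases before a start site, CCAAT on either strand was found in 21 of the 26 genes, or 80.8%. It was found in 37.5% of all 27025 genes with a promoter sequence. These were not limited to the 17344 genes tested, as the 26 are, so that the shares set tested genes against a wider set. GGGCGG was found in 22 of the 26, or 84.6%, against 35.4% of the 27025. The sterol element in the form searched was found in Hmgcs1 alone of the 26, or 3.85%, against 1.22% of the 27025. It begins 137 bases before the start site. Genes with several start sites count as holding a motif if any of the windows does. No 2 matches overlap in the printed sequences, and a match is a run of letters, not a measured binding site. Within the 26 genes the median log2 fold change was 2.54 with CCAAT and 2.10 in the 5 without it (Acaca, Acat2, Acly, Elovl6 and Scap). It was 2.51 with GGGCGG and 2.13 without, and 2.07 for Hmgcs1 with the sterol element against 2.49 without it. These splits are descriptions with no test. Insig2 counts among the genes with CCAAT, by 3 runs in the window printed, and among those with GGGCGG, by 1 run in each of its 2 other windows.

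The mevalonate steps turn acetyl-CoA into farnesyl diphosphate, and all 7 of their genes rose, with a median log2 fold change of 2.63. Values in each fraction are given in the order Female1, Female2, Male1 and Male2. Fdps (farnesyl diphosphate synthase, chr3:89093588-89101959 in GRCm38) stood at 9.64, 8.80, 5.62 and 10.1 CPM in Cyto-ID Low and at 89.4, 89.9, 73.2 and 115 CPM in Cyto-ID High. All High libraries were thus far above all Low ones, and the log2 fold change was 3.43 ± 0.23 (SE, adjusted p 1.30e-05 by edgeR). An annotated gene, Gm43738, shares exon bases with Fdps on the same strand. Mvd, the decarboxylase that makes isopentenyl diphosphate, stood at 8.96, 12.3, 4.91 and 15.2 CPM in Cyto-ID Low and at 85.5, 122, 85.9 and 144 CPM in Cyto-ID High. Male1 was the lowest in Low, no Low library reached the High ones, and the gene rose by 3.40 ± 0.35 (SE, adjusted p 4.84e-05 by edgeR). Mvk, mevalonate kinase, stood at 20.7, 23.1, 14.3 and 30.2 CPM in Cyto-ID Low and at 132, 150.4, 128 and 212 CPM in Cyto-ID High. Pmvk, the second kinase of the route, stood at 18.5, 14.4, 14.8 and 17.9 CPM in Cyto-ID Low and at 100.3, 95.5, 89.2 and 122 CPM in Cyto-ID High. Both kinases were well apart between the fractions, and rose by 2.81 ± 0.26 (SE, adjusted p 2.74e-05 by edgeR) for Mvk and 2.63 ± 0.16 (SE, adjusted p 1.27e-05 by edgeR) for Pmvk.

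The 3 other genes of these steps rose somewhat less, by 2.54 for the isomerase Idi1, 2.49 for the thiolase Acat2 and 2.07 for Hmgcs1, the synthase that forms HMG-CoA (SE 0.24, 0.21 and 0.27). Hmgcs1 was all the same the most abundant of the 32 per length of annotated exon, in both fractions. The TPM scale divides counts by the joined length of all annotated exons of a gene, then sets an equal total in each library. On this scale Hmgcs1 was at 114 ± 21.3 in Low and 329.7 ± 119 in High (SD, n = 4 each). Its High libraries spread from 550.1 CPM in Female1 to 1290.2 in Female2. The lower end of the TPM scale in Low was held by Acss2, at 3.06 ± 1.35, and Tm7sf2, at 3.56 ± 0.816, which differ by less than their spread. The place of Acss2 depends on the length used, which was 10163 bases, against 4403 for Tm7sf2. In CPM the Low mean of Acss2 was 12.1, above 6.10 for Tm7sf2, 8.54 for Fdps and 10.3 for Mvd.

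The steps that make squalene and turn it into lanosterol are covered by 3 genes, all of which rose, with a median log2 fold change of 2.96. Fdft1 (squalene synthase, chr14:63145150-63179578), which commits farnesyl diphosphate to sterols, stood at 46.6, 46.9, 30.9 and 59.1 CPM in Cyto-ID Low and at 338, 491, 351 and 499 CPM in Cyto-ID High. Sqle (squalene epoxidase, chr15:59315077-59331192), a rate-limiting oxygen-dependent step, stood at 55.7, 53.1, 29.3 and 58.4 CPM in Cyto-ID Low and at 295, 491, 340.4 and 396 CPM in Cyto-ID High. Lss, the cyclase that closes the sterol rings, stood at 35.4, 39.6, 25.0 and 43.7 CPM in Cyto-ID Low and at 207, 291, 245 and 304 CPM in Cyto-ID High. In all 3 the lowest Low library was Male1 and the lowest High library Female1, with no overlap between the fractions. The changes were 3.19 ± 0.25 (SE, adjusted p 1.62e-05 by edgeR) for Fdft1, 2.96 ± 0.26 (SE, adjusted p 2.19e-05 by edgeR) for Sqle and 2.86 ± 0.22 (SE, adjusted p 1.58e-05 by edgeR) for Lss. Exons of Fdft1 overlap those of Ctsb on the other strand, and the strand used in counting is not given in the sources used here, so that reads of these genes may be shared. Of the 32 genes 13 share exon bases with another annotated gene.

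The 8 genes from lanosterol to cholesterol all rose, with a median of 2.42. The largest change was that of Cyp51 (lanosterol demethylase, chr5:4081145-4104746), at 74.2, 71.4, 40.4 and 86.5 CPM in Cyto-ID Low and at 503, 777, 524 and 574 CPM in Cyto-ID High, which rose by 3.13 ± 0.26 (SE, adjusted p 1.94e-05 by edgeR). Tm7sf2, a sterol reductase, stood at 5.96, 6.08, 4.44 and 7.94 CPM in Cyto-ID Low and at 46.2, 50.8, 44.0 and 57.2 CPM in Cyto-ID High. It rose by 3.02 ± 0.20 (SE, adjusted p 1.27e-05 by edgeR), and Vps51 shares exon bases with it on the same strand. Hsd17b7, the ketoreductase of the demethylation, stood at 21.8, 25.6, 14.8 and 27.7 CPM in Cyto-ID Low and at 132, 221, 164 and 176 CPM in Cyto-ID High and rose by 2.95 ± 0.24 (SE, adjusted p 1.83e-05 by edgeR). Msmo1, the methyl oxidase that acts after Cyp51, stood at 87.9, 61.2, 54.3 and 75.4 CPM in Cyto-ID Low and at 325, 575, 378 and 348 CPM in Cyto-ID High. It rose by 2.54 ± 0.23 (SE, adjusted p 2.53e-05 by edgeR), and its High libraries were led by Female2. The other 4, namely Sc5d, Nsdhl, Dhcr7 and the isomerase Ebp, rose by 2.30, 2.21, 2.19 and 1.92, without overlap between the fractions.

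**Figure D2:**
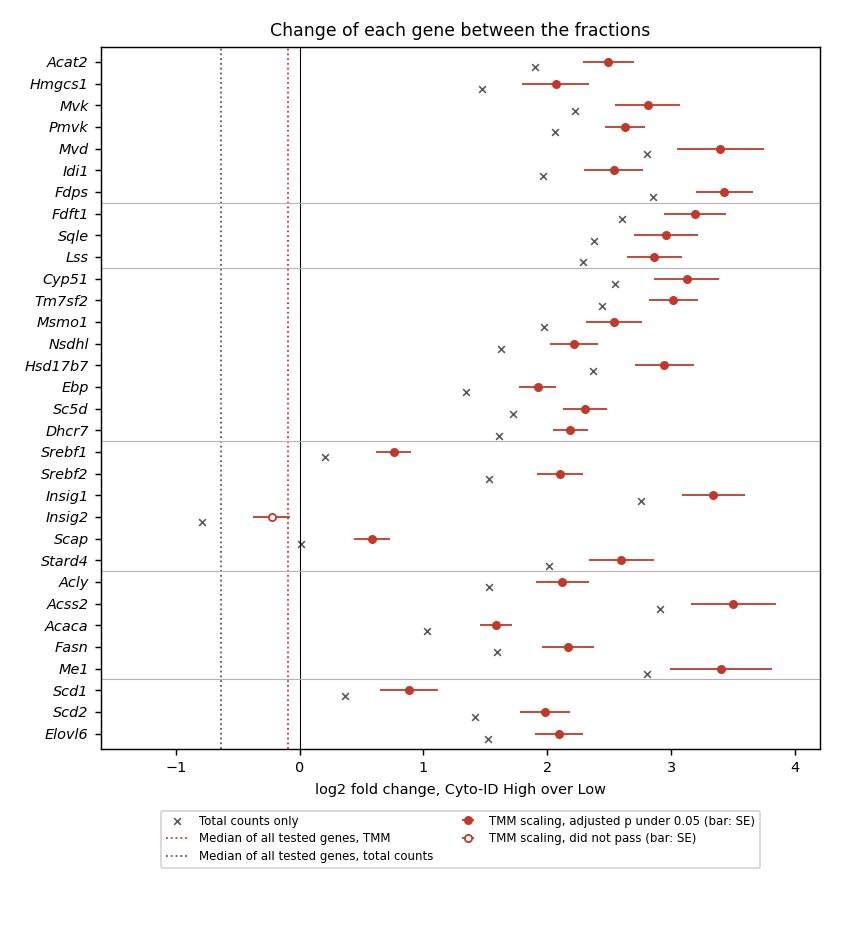
Log2 fold change of Cyto-ID High over Low for each of the 32 genes with TMM scaling (red, bars are SE, open where the test was not passed) and with total-count scaling (grey crosses), beside the median of all tested genes in each (dotted). With TMM all genes but Insig2 lie right of 0, from 0.58 for Scap to 3.50 for Acss2, while with total counts Scap falls to 0.01.

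The regulators did not move as one. Srebf2 encodes the factor that drives mainly sterol genes, and Srebf1 the one that drives mainly fatty acid genes. Srebf2 stood at 178, 127, 149 and 175 CPM in Cyto-ID Low and at 558, 628, 662 and 878 CPM in Cyto-ID High, with no overlap, and rose by 2.10 ± 0.19 (SE, adjusted p 2.42e-05 by edgeR). Srebf1 stood at 97.2, 84.8, 109 and 93.5 CPM in Cyto-ID Low and at 142, 130.2, 191 and 198 CPM in Cyto-ID High, and rose by 0.76 ± 0.14 (SE, adjusted p 0.00167 by edgeR). Under total-count scaling the change of Srebf1 was 0.20 with an edgeR adjusted p of 0.258, so its call rests on the scaling. The ratio of Srebf2 to Srebf1 counts within a library, which no scaling enters, was 1.36 to 1.88 in Low and 3.46 to 4.83 in High. The Low and High ranges do not overlap. This and the 2 ratios below are descriptions with no test, since the pairs were chosen after their values were seen.

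Insig1 and Insig2 encode the proteins that retain SCAP with the precursors in the endoplasmic reticulum, and Insig1 is itself a known SREBP target. Insig1 (chromosome 5) stood at 28.8, 36.6, 20.8 and 36.2 CPM in Cyto-ID Low and at 252, 453, 259 and 283 CPM in Cyto-ID High. The High libraries exceeded all Low ones, Female2 by the widest margin, and the log2 fold change was 3.34 ± 0.25 (SE, adjusted p 1.52e-05 by edgeR). Insig2 (chromosome 1) stood at 16.5, 19.5, 18.6 and 19.1 CPM in Cyto-ID Low and at 15.9, 19.5, 14.9 and 13.1 CPM in Cyto-ID High. The fractions overlapped, and the change was −0.23 ± 0.15 (SE, adjusted p 0.255 by edgeR), which did not pass. Under total-count scaling Insig2 was called lower, at −0.79 with an edgeR adjusted p of 0.00349. Counts of Insig1 were 1.12 to 1.89 times those of Insig2 in the Low libraries and 15.9 to 23.2 times in the High libraries.

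Scap, the escort and sterol sensor of the SREBP factors, stood at 109, 112, 113 and 118 CPM in Cyto-ID Low and at 147, 149, 168 and 219 CPM in Cyto-ID High. It rose by 0.58 ± 0.15 (SE, adjusted p 0.00795 by edgeR), the smallest of the 31 rises, but by 0.01 (edgeR adjusted p 0.948) under total-count scaling. Stard4, a carrier of cholesterol in the cytosol, stood at 23.5, 22.8, 14.4 and 25.2 CPM in Cyto-ID Low and at 83.5, 178, 118 and 139 CPM in Cyto-ID High. It rose by 2.60 ± 0.26 (SE, adjusted p 4.44e-05 by edgeR), and the High value of Female1 lay below the other 3.

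**Figure D3:**
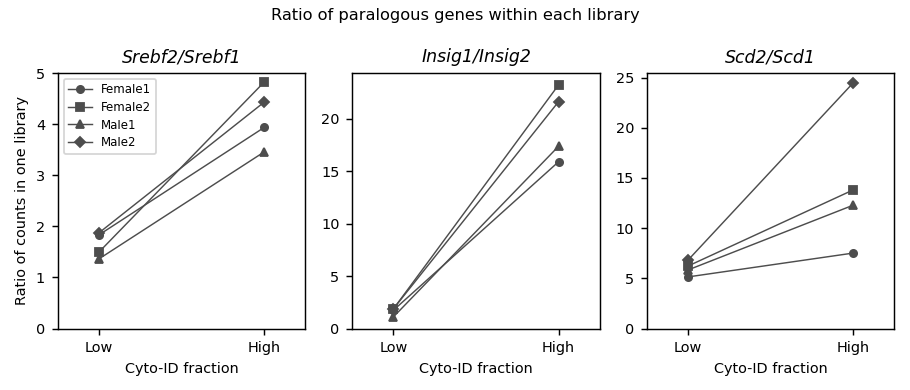
Ratio of the raw counts of 2 related genes within each library (y axis, linear from 0), with lines that join the Low and High library of an animal. All 3 ratios are higher in High in each of the 4 animals, from 5.14 to 6.81 in Low to 7.52 to 24.5 in High for Scd2 over Scd1.

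Supply of acetyl-CoA and synthesis of palmitate are covered by 5 genes, all of which rose, with a median log2 fold change of 2.17. Acss2 (chr2:155517948-155585724), which makes acetyl-CoA from acetate, stood at 10.1, 14.3, 5.78 and 18.1 CPM in Cyto-ID Low and at 111, 161, 114 and 160.4 CPM in Cyto-ID High. This was the largest change of the 32, 3.50 ± 0.34 (SE, adjusted p 3.58e-05 by edgeR), and the exons overlap those of Ggt7, Gss and Acss2os on the other strand. Me1 (chr9:86581371-86695953), the cytosolic malic enzyme that yields NADPH, stood at 30.1, 48.7, 20.3 and 71.1 CPM in Cyto-ID Low and at 314, 587, 354 and 545 CPM in Cyto-ID High. The Low libraries were widely spread here, Male2 being the highest and Male1 the lowest, yet none came near the High ones, and the change was 3.41 ± 0.41 (SE, adjusted p 0.000117 by edgeR). Fasn, the synthase itself, stood at 154, 178, 127 and 206 CPM in Cyto-ID Low and at 617, 697, 744 and 958 CPM in Cyto-ID High and rose by 2.17 ± 0.21 (SE, adjusted p 3.24e-05 by edgeR). Acly, which cleaves citrate to acetyl-CoA, stood at 88.8, 116, 84.8 and 120.3 CPM in Cyto-ID Low and at 332, 503, 402 and 549 CPM in Cyto-ID High and rose by 2.12 ± 0.21 (SE, adjusted p 4.20e-05 by edgeR). Acaca, the carboxylase that makes malonyl-CoA, rose from 29.0 ± 1.78 to 87.4 ± 9.16 CPM (SD, n = 4 each), or by 1.59 ± 0.13 (SE, adjusted p 1.83e-05 by edgeR).

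Of the genes that lengthen and desaturate the product, Elovl6, which extends palmitate, stood at 87.7, 104, 78.6 and 111 CPM in Cyto-ID Low and at 318, 489.7, 397 and 428 CPM in Cyto-ID High and rose by 2.10 ± 0.19 (SE, adjusted p 2.74e-05 by edgeR). Scd1 and Scd2 encode stearoyl-CoA desaturases, which introduce the first double bond. Scd2 stood at 71.6, 93.9, 61.1 and 75.4 CPM in Cyto-ID Low and at 229, 366, 321 and 272 CPM in Cyto-ID High, without overlap, and rose by 1.98 ± 0.20 (SE, adjusted p 4.10e-05 by edgeR). Scd1 was low in both fractions, at 13.9, 15.1, 10.5 and 11.1 CPM in Cyto-ID Low and at 30.5, 26.5, 26.2 and 11.1 CPM in Cyto-ID High. It rose by 0.88 ± 0.23 (SE, adjusted p 0.0110 by edgeR), but the fractions overlapped, since the High library of Male2 was level with its Low library. The call on Scd1 was lost without Low Female1 (edgeR adjusted p 0.0540), without both Female2 libraries (0.0714, an alternative chosen after seeing the data) and under total counts (0.323). Scd2 had 5.14 to 6.81 times the counts of Scd1 in Low and 7.52 to 24.5 times in High. The 2 genes are close paralogues, both on chromosome 19, and how reads shared by both were counted is not given in the sources used here.

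With TMM scaling the animals agreed in direction for the genes that rose, but their order in size depended on the scaling. High minus Low was above 0 in all 4 animals for 31 of the 32 genes, by 0.00 log2 CPM to 2 decimals for Scd1 in Male2 and by more elsewhere. With total counts it was above 0 in Female1 and Male1 for all 31 genes that rose, in Female2 for 29 and in Male2 for 30. The largest difference was in Male1 for 19 of the 31, or 26 with total counts. The smallest was in Female1 for 21 and in Male2 for 7, but with total counts for 4 and 20. With TMM the median over the 32 genes was 1.99, 2.74, 2.59 and 2.33 log2 CPM in Female1, Female2, Male1 and Male2, beside a median over all genes that lay between −0.09 and −0.07. Low Male1 was the lowest Low library for 25 of the 31 genes, and for 28 with total counts. Low Male2 was the highest for 21, but for 8 with total counts. In High, Female2 was the highest library for 16 and Male2 for 14, and with total counts for 19 and 3. The TMM factor of High Male2 was the lowest of the 8, at 0.679. A dependence of the difference on sex was found for 0 of the 32 genes (edgeR's interaction of sex and fraction, also 0 at an unadjusted p under 0.05). Among all genes it was found for 0%, with 19 at an unadjusted p under 0.05, or 38 with the replicate block and 5 by DESeq2, neither of which called a gene. The 0.110% of genes at this level is far under the 5% that a test of true size gives by chance. With 2 animals per sex the test called too little to say whether the sexes differed. Without both libraries of Male2 31 genes rose, and without both of Female2 30 did, both alternatives chosen after seeing the data.

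**Figure D4:**
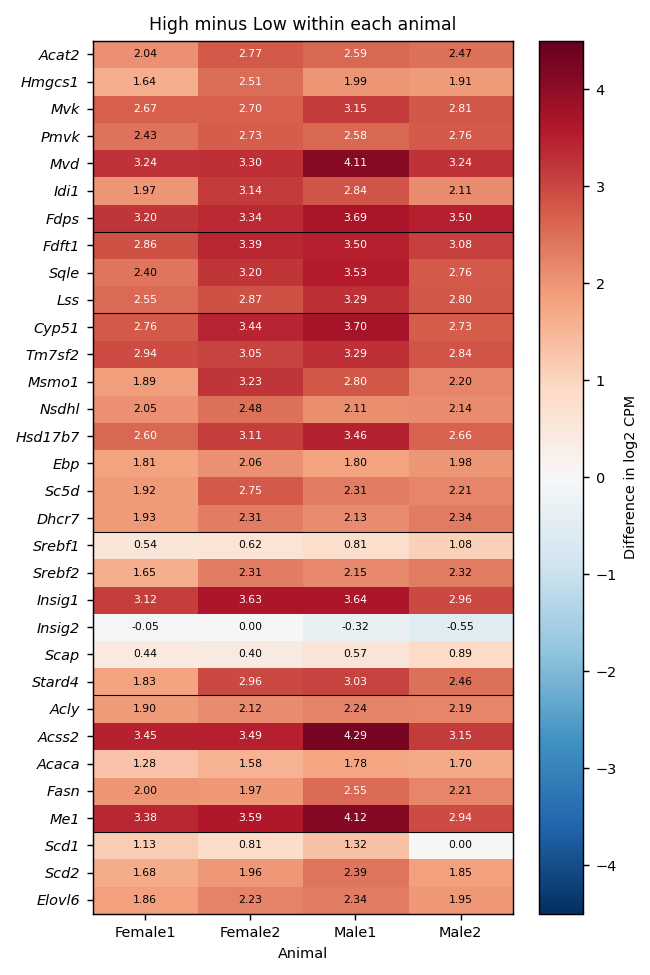
Difference in log2 CPM, High minus Low, for each of the 32 genes (rows) in each of the 4 animals (columns), with the value in each cell and red for higher in High. All rows but Insig2 are at or above 0 in every animal, and the only value of 0.00 outside that row is Scd1 in Male2.

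Cells of fat tissue make much fatty acid, and the adipocyte markers Adipoq, Plin1, Cidec, Retn and Lep were each at or below 0.305 CPM in every library. Over all 8 adipocyte markers 0 of the 3 tested passed, and their sum was 323 to 627 CPM in Low and 1.18 to 787 in High, nearly all of it Fabp4. Of the markers of fibroblasts, leukocytes, endothelium and muscle, Dcn was called lower and Cd52 higher, and the other 23 tested were not called. Under total counts Cd52 was not called either. In High Male2, where the summed level of each of these 4 marker lists was lowest, the summed level of the 32 genes was 9543 CPM. Unscaled, they took 0.648% of its counts, above all Low libraries. The other High libraries ranged from 0.645% to 0.822%, so that this share lay near their lower end. The part of adipocytes and of these other cell types in the result was not tested. All 10 S and G2/M phase markers were lower in High, from 396 to 1134 CPM summed in Low to 99.2 to 236 in High. Their part in the result was not tested.

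Neighbouring lipid pathways, from 5 lists of 83 genes that share none with the 32, held called genes in both directions. Of the 82 genes tested 47 rose and 15 fell, with a median log2 fold change of 0.60, and with total-count scaling 31 were higher and 27 lower. The shares of all genes were 23.4% higher and 25.3% lower, and 12.6% and 49.1% with total counts. These lists were compiled with earlier results of these data known. The list of fatty acid supply, elongation, desaturation and activation held the largest changes on either side, with 19 of 27 tested genes higher and 5 lower and a median of 1.30 (16 higher and 5 lower with total-count scaling). Elovl4, which makes very long chains for barrier lipids, stood at 59.7, 76.9, 24.0 and 93.3 CPM in Cyto-ID Low and at 599.5, 977, 693 and 705 CPM in Cyto-ID High, and rose by 3.55 ± 0.39 (SE, adjusted p 7.12e-05 by edgeR). Acsl1, an acyl-CoA synthetase, rose from 56.2 ± 23.7 to 616 ± 116 CPM (SD, n = 4 each), or by 3.45 ± 0.34 (SE, adjusted p 3.65e-05 by edgeR). The desaturases of polyunsaturated fatty acids went the other way. Fads2 stood at 70.8, 110.0, 95.7 and 105 CPM in Cyto-ID Low and at 4.75, 4.18, 3.13 and 9.67 CPM in Cyto-ID High. Fads1 stood at 41.3, 73.7, 60.3 and 63.2 CPM in Cyto-ID Low and at 7.29, 3.48, 4.04 and 4.84 CPM in Cyto-ID High. No High library of either reached the lowest Low value, and the changes were −4.16 ± 0.33 (SE, adjusted p 1.72e-05 by edgeR) for Fads2 and −3.60 ± 0.28 (SE, adjusted p 1.56e-05 by edgeR) for Fads1.

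**Figure D5:**
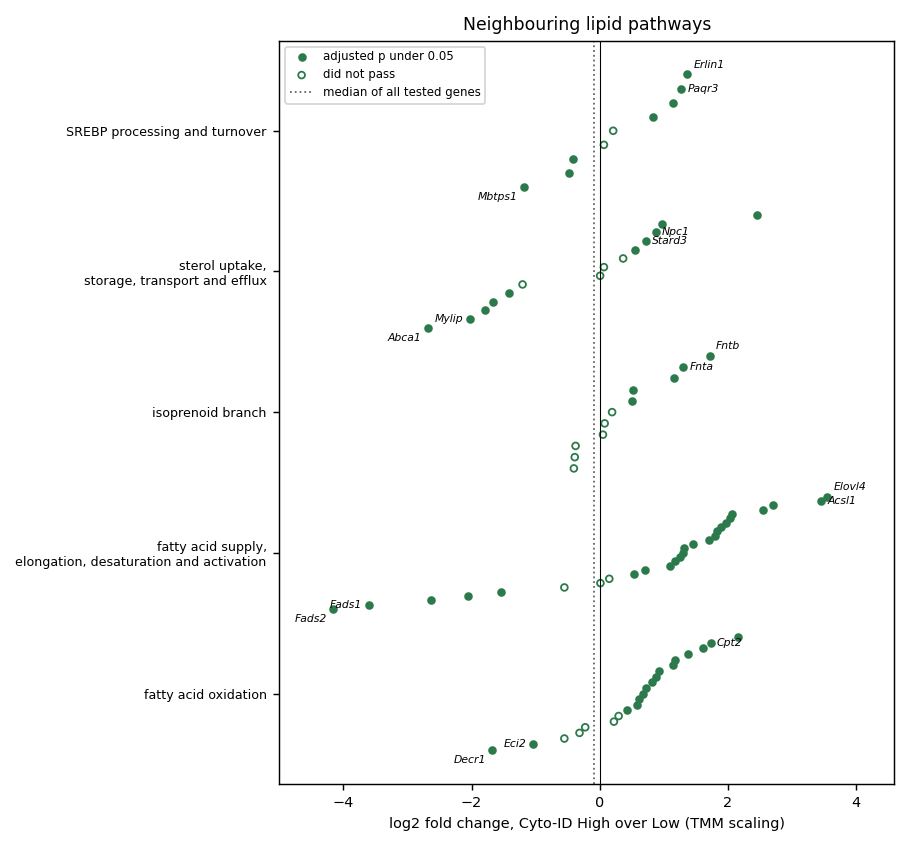
Log2 fold change of Cyto-ID High over Low (TMM scaling) of the 82 tested genes in 5 neighbouring lipid pathways, filled where the adjusted p is under 0.05, beside the median of all tested genes (dotted). Labels mark called genes described in the text, other than Nr1h3 and Abcg1, with Fads2 at −4.16 and Elovl4 at 3.55 as the extremes.

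For sterol uptake, storage, transport and efflux, 5 of 14 genes rose and 5 fell, with a median of 0.04. Abca1, which exports cholesterol, stood at 40.9, 61.7, 44.1 and 60.6 CPM in Cyto-ID Low and at 10.8, 6.75, 7.44 and 7.46 CPM in Cyto-ID High, and fell, with a log2 fold change of −2.68 ± 0.21 (SE, adjusted p 1.69e-05 by edgeR). Mylip, the ligase that degrades lipoprotein receptors, stood at 35.7, 104, 51.5 and 70.1 CPM in Cyto-ID Low and at 10.1, 18.6, 13.6 and 22.4 CPM in Cyto-ID High. It fell, with a log2 fold change of −2.02 ± 0.36 (SE, adjusted p 0.00112 by edgeR), and both are known targets of the sterol-sensing LXR receptors. Abcg1, a further exporter and LXR target, went the other way, with a change of 0.97 ± 0.18 (SE, adjusted p 0.00177 by edgeR) and with total-count scaling 0.42 (adjusted p 0.130 by edgeR). Of the 2 LXR genes, Nr1h3 fell from 2.33 ± 0.318 to 0.729 ± 0.149 CPM (SD, n = 4 each), with a log2 fold change of −1.66 ± 0.28 (SE, adjusted p 0.000899 by edgeR). The change of Nr1h2 was 0.07 ± 0.14 (SE, adjusted p 0.733 by edgeR), and with total-count scaling it was called lower, at −0.51 with an edgeR adjusted p of 0.00186. Npc1, which lets cholesterol out of lysosomes, rose by 0.87 ± 0.13 (SE, adjusted p 0.000335 by edgeR), and the lysosomal surface protein gene Stard3 by 0.72 ± 0.14 (SE, adjusted p 0.00191 by edgeR). With total-count scaling 2 of these 14 were higher and 7 lower, where 49.1% of all genes were lower, and Stard3 did not pass (edgeR adjusted p 0.306).

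Among 9 genes for the processing and turnover of SREBP and its partners 4 rose and 3 fell, and with total-count scaling 3 and 4. Mbtps1, the first protease that cuts SREBP, stood at 111, 125, 122 and 118 CPM in Cyto-ID Low and at 48.5, 50.1, 52.5 and 59.0 CPM in Cyto-ID High. It fell without overlap between the fractions, with a log2 fold change of −1.18 ± 0.12 (SE, adjusted p 5.33e-05 by edgeR). Mbtps2, the second, did not pass, at 0.21 ± 0.19 (SE, adjusted p 0.404 by edgeR). Erlin1, which helps to hold SREBP in check, rose by 1.36 ± 0.16 (SE, adjusted p 0.000118 by edgeR), as did Paqr3, a Golgi anchor of SCAP, by 1.27 ± 0.17 (SE, adjusted p 0.000181 by edgeR).

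In the isoprenoid branch, which draws on farnesyl diphosphate for purposes other than sterols, 5 of 11 genes rose and 0 fell, but with total-count scaling 3 were higher and 5 lower. Both farnesyltransferase subunits rose, Fntb by 1.72 ± 0.18 (SE, adjusted p 5.65e-05 by edgeR) and Fnta by 1.31 ± 0.21 (SE, adjusted p 0.000562 by edgeR). The geranylgeranyl diphosphate synthase Ggps1 did not pass, at −0.38 ± 0.16 (SE, adjusted p 0.0715 by edgeR), and was called lower with a replicate block for the animal, with an edgeR adjusted p of 0.0347. Of 21 genes of fatty acid oxidation, the opposite route, 14 rose and 2 fell, with a median of 0.68. The mitochondrial transferase Cpt2 rose by 1.73 ± 0.26 (SE, adjusted p 0.000426 by edgeR). Decr1 and Eci2, auxiliary enzymes for unsaturated acids, fell, with changes of −1.68 ± 0.19 (SE, adjusted p 7.22e-05 by edgeR) and −1.04 ± 0.14 (SE, adjusted p 0.000207 by edgeR). With total-count scaling 7 of the 21 were higher and 6 lower, and with the replicate block 15 and 4.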

How the data were processed

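RNA-seq counts of 8 libraries were used. The deposited table holds raw counts per gene symbol, since its values are whole and its library totals unequal. Per the submitters' processing notes STAR 2.7.3, DESeq2 and the build GRCm38 were used; the counter, annotation and strandedness are not given in the sources used here. In R 4.3.3 with edgeR 4.0.16, filterByExpr kept 17344 genes, libraries were scaled by TMM, and High was tested against Low by glmQLFit and glmQLFTest, adjusted for sex, two-sided, with Benjamini-Hochberg adjustment over all genes and a threshold of 0.05. Standard errors were derived from the log2 fold change and F. The log2 CPM used a prior count of 2. Exon lengths, coordinates and overlaps came from GENCODE M21 (GRCm38), which held 53388 of the 55276 symbols.

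Libraries with the same animal name were taken as pairs of 1 animal, since the protocol sorts 1 suspension into both fractions. Deviations from the fraction means correlated across genes by 0.43, 0.32, −0.02, 0.28 in Female1, Female2, Male1 and Male2, and by −0.37 to 0.35 between libraries of different animals, so that the pairing rests on the names. The members and lists were chosen with earlier results of these data known. All 32 genes were to be named, with values by library for up to 4 called genes per role of the largest change and for all regulators, and, from each neighbouring list, up to 2 called genes per direction with a mean of at least 5 CPM; Acaca, Abcg1, Nr1h2, Nr1h3, Mbtps2, Ggps1 and Fabp4 were added after their values were seen. Some genes that this rule picks are not reported here. Alternatives were other scalings (RLE, total counts), filters (none, at least 10 counts in every library), tests (DESeq2 1.42.0, limma-voom in limma 3.58.1, robust dispersion), no covariate, a replicate block for the animal, and each library left out. On simulated counts the fit recovered 73% of 200 genes changed by 1.5 on the log2 scale, with 14 false calls among 16889 genes. The simulation changed few genes, in both directions, and did not pair libraries by animal, while 48.7% of genes were called in the data. It therefore cannot speak to the choice of scaling.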

Additional observations from a re-analysis of the deposited data

Results flagged for a closer look

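In 64 groups of 4 libraries (32 genes in 2 fractions) the highest and the lowest library were tested for their distance from the others by Dixon's test, which by chance picks out about 1 group in 20. It picked out 3. Idi1 in the High library of Female2 stood at 496 CPM, above 256, 288 and 269 in the others. Insig1 in the same library stood at 453 CPM, above 252, 259 and 283. Without both Female2 libraries the log2 fold change was 2.31 for Idi1 and 3.23 for Insig1. That library also held the gastric transcripts given above, whose part in these values was not tested. Acat2 in the Low library of Male1 stood at 11.4 CPM, below 15.7, 16.0 and 16.3, and without it the log2 fold change was 2.37.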

How the results depend on the processing

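Of the 32 genes, 28 stayed on the same side of the threshold, with the same sign, in all 19 alternatives, 2 of which (without both Female2 or both Male2 libraries) were chosen after seeing the data. The 4 others were Srebf1, Scap, Scd1 and Insig2, whose changed values are given with them above. Among counts over all genes, the 32 genes and all neighbouring genes, only scaling by total counts moved one by over 1.5 times. It gave 2194 genes higher and 8514 lower in place of 4055 and 4385 and, among the 32, 28 higher and 1 lower (Insig2) in place of 31 and 0. With the replicate block 9336 genes differed in place of 8440, and 31 of the 32, with no change of a call among them. Leaving out 1 library gave 7269 to 8106 genes, and 30 or 31 of the 32. The interaction with sex called 0 of the 32 with the block and with DESeq2 as well. The labels name 1 sort per animal, so that sorting error and differences between animals cannot be told apart, and 4 libraries per fraction limit the precision.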

Other observations

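In the Low fraction the summed level of the 32 genes followed the animals in the order Male1, Female1, Female2 and Male2, at 1421, 1712, 1785 and 1988 CPM. The share of all counts taken by the suprabasal keratins Krt4 and Krt13 had the same order in Low, at 0.858%, 1.30%, 2.16% and 2.53%. The unscaled share of the 32 genes in Low was 0.167%, 0.211%, 0.233% and 0.230% in these animals, so that without scaling Female2 and Male2 changed places and the orders did not match. In High the orders differed also with scaling, since Female2 had the highest sum and Male2 the highest share of these keratins, 14.0%. With 4 animals a relation between them was not tested.

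Fabp4, which encodes a fatty acid carrier known from fat cells, macrophages and capillaries, stood at 626, 468, 322 and 346 CPM in Cyto-ID Low and at 784, 262, 524 and 1.03 CPM in Cyto-ID High. High Male2 was thus far below the other 7 libraries, and the change between the fractions did not pass, at −0.21 ± 1.03 (SE, adjusted p 0.897 by edgeR). The summed level of 5 endothelial markers was 0.977 CPM in that library and 7.75 to 24.0 in the other 7. Whether these belong together was not tested.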
